A study of Mus musculus with 56 samples.

Results

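Kidneys collected at zeitgeber time 16 (ZT16, 16 h after lights on and so in the dark phase) were compared between mice under daytime-restricted feeding (DRF) and mice under nighttime-restricted feeding (NRF, the control regimen). The members were chosen by the labels for regimen and time, which gave 4 DRF and 4 NRF libraries out of 56 in the series, each from 1 kidney sample of a separate mouse. All mice were female C57BL/6J, 9 weeks old at collection, without any genetic change or drug. They were kept for 7 days on 12 h of light and 12 h of dark with free access to chow, and then for 7 days with food by day only or by night only. The comparison asks which kidney transcripts differ when 1 group is in its feeding phase and the other is not, at the same clock time. The design has no group fasted or fed without a regimen, so the state of feeding at the hour of collection and the week of the regimen before it cannot be told apart. Levels are in TPM (a share of all transcripts, corrected for gene length) on a linear scale, rebuilt from the deposited values, and differences are DRF minus NRF on the log2(TPM + 1) scale ± standard error (SE), so that differences of genes at low levels are understated.

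The kidney has its own circadian clock, in which the activators BMAL1 (encoded by Arntl), CLOCK and NPAS2 drive the genes of their own repressors, the PER and CRY proteins and REV-ERBs. Meals reach the tissue by other routes as well. Insulin rises with food and keeps FOXO transcription factors out of the nucleus, and fatty acids released during a fast activate PPARA, a nuclear receptor of fat-burning genes. Newly made proteins are folded with the help of chaperones, the heat shock proteins in the cytosol and the ER chaperones in the endoplasmic reticulum.

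The 8 libraries held 22.92 to 23.87 M recovered reads. Kidney markers were present in each, with 55388 to 111082 TPM of Kap, the androgen-regulated protein of the proximal tubule, and 4375 to 7709 TPM of Umod, the uromodulin of the thick ascending limb. Correlations between libraries across genes were 0.989 to 0.995 within DRF and 0.971 to 0.994 within NRF. NRF replicates 1 and 2 stood apart in adipose tissue markers. The 9 markers summed to 2260 and 1199 TPM there, to 27.8 and 38.1 TPM in the other NRF libraries and to between 34.2 and 103 TPM under DRF. NRF replicate 1 also had the highest sum of 12 immune cell markers, 2071 TPM against 752 to 1217 TPM in the other libraries, and almost none of the inner medullary urea transporter Slc14a2, at 0.198 TPM against 33.8 to 242 TPM. Cd74 made up 1711 TPM of that immune sum. C1qa and C1qb were also highest in NRF replicate 1, but the other immune markers, such as Lyz2, Itgam, Ptprc and Csf1r, were not. The 7 renal medulla markers summed to 5685, 11066, 10093 and 7534 TPM in NRF replicates 1 to 4, and to between 7547 and 8708 TPM under DRF. The sum of the 8 renal cortex markers was lowest in NRF replicate 2, at 4345 TPM. The part of kidney region in the differences between regimens was not tested. The summed level of 10 liver markers did not overlap between regimens, with 464 to 702 TPM under DRF and 339 to 406 TPM under NRF. Of the 8 liver markers tested 1, Apoc3, was called, beside 4.83% of all genes tested. Adrenal markers were near 0 at 4.43 to 6.72 TPM. Counts of the main lists are therefore also given without NRF replicate 1 and without both NRF replicates 1 and 2, the latter a choice made after seeing the data. In whole kidney, fewer cells of a type and less RNA per cell cannot be told apart.

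To determine which transcripts differed at ZT16, DRF was compared with NRF for 12203 genes. Of these, 589 had an adjusted p under 0.05 and are referred to as called, which is 4.83% of the genes tested. Under DRF 270 were higher (2.21%) and 319 were lower (2.61%). The balance of directions was not stable, since the share of calls that were higher was 45.8% here, 35.9% with log2 CPM, 61.1% in the fit of the ZT16 libraries alone, and 38.7% without NRF replicate 1 and 56.2% without NRF replicate 2. Most differences were small, since the median size among called genes was 0.38, only 120 reached 1.5-fold and 24 reached 2-fold. Of the called genes that reached 2-fold, 19 were higher under DRF and 5 were lower. The 95% confidence interval lay within 1.5-fold in either direction for 10407 genes, or 85.3%. Groups did not overlap for 512 of the called genes and for 11.2% of all genes tested, with all DRF libraries above in 4.81% and below in 6.38%. Lack of overlap was a condition for naming the 12 largest rises and the 12 largest falls, so it adds nothing for those genes. The same fit called more genes at each other time, with 3350 at ZT4 (27.5%), 2284 at ZT12 (18.7%), 2063 at both ZT0 and ZT20 (16.9%), 1842 at ZT8 (15.1%) and 1795 at ZT24 (14.7%).

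The number called moved with the libraries and the fit. It was 335 without NRF replicate 4, 341 without DRF replicate 2 and 357 without DRF replicate 3, and 568 without NRF replicate 1. With NRF replicates 1 and 2 both left out it was 234. A fit of the ZT16 libraries alone, which has fewer mice to estimate the spread, called 167 genes.

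**Figure D1:**
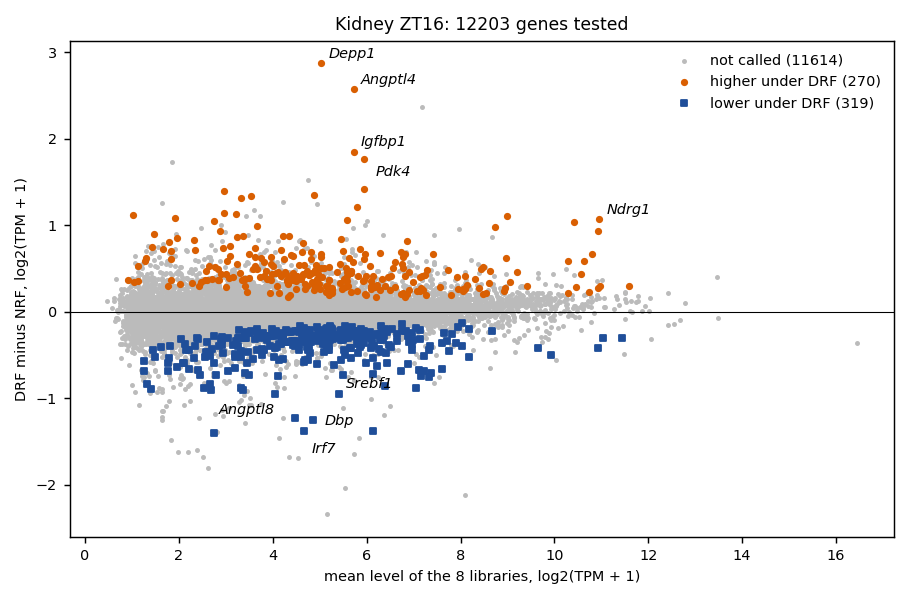
Difference between DRF and NRF at ZT16 on the log2(TPM + 1) scale (vertical axis) against the mean level of the 8 libraries (horizontal axis, log2(TPM + 1)), 1 point per gene tested. The 270 orange and 319 blue genes passed an adjusted p of 0.05, and Depp1, Angptl4, Igfbp1 and Pdk4 lie farthest above 0 among them.

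Several genes of the insulin signalling and FOXO list were higher under DRF. Depp1, a FOXO-induced regulator of autophagy (chromosome 6, 116650609 to 116652794 in GRCm38), was at 59.4, 53.9, 42.3 and 66.5 TPM in the 4 DRF libraries and at 3.27, 16.7, 6.75 and 4.73 TPM in the 4 NRF libraries. Every DRF library was above every NRF library, and the means were 7.05-fold apart (difference 2.87 ± 0.49, adjusted p = 0.00028). Igfbp1, a secreted binding protein of insulin-like growth factors (chromosome 11, 7197782 to 7202546), was at 74.8, 92, 82.7 and 77.4 TPM under DRF and at 25.7, 19.9, 22.7 and 19.7 TPM under NRF. The regimens were 3.71-fold apart with a small spread in each (1.85 ± 0.22, adjusted p = 3.67e-07). Txnip, which binds thioredoxin and limits glucose uptake, was at 708, 689, 884 and 507 TPM under DRF and at 289, 329, 297 and 363 TPM under NRF (1.10 ± 0.20, adjusted p = 0.000656). G6pc, the glucose-6-phosphatase that releases free glucose, was at 2348, 2245, 3000 and 2642 TPM against 1437, 1120, 1402 and 1412 TPM (0.93 ± 0.21, adjusted p = 0.00556). These 4 genes did not overlap between regimens and kept their calls without any 1 of the 8 libraries.

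Of 20 genes tested of the insulin signalling and FOXO list, 7 rose and none fell, beside 4.83% called among all genes. The median of the list was 0.29 against −0.02 for all genes. The others called were Foxo3, one of the FOXO factors (73.7 ± 17.5 TPM under DRF and 47.3 ± 7.52 TPM under NRF, SD, n = 4), Irs2, the insulin receptor substrate (11.1 ± 1.09 and 5.80 ± 1.72 TPM), and Pik3ip1, an inhibitor of PI3 kinase (10.6 ± 2.44 and 7.81 ± 0.824 TPM). Foxo3 was called in every leave-one-out fit. Irs2 was not called without NRF replicate 1 (adjusted p = 0.0526), and Pik3ip1 was called in 2 of the 8 fits, with an adjusted p of up to 0.198. Without NRF replicate 1 the list had 5 calls, without NRF replicates 1 and 2 it had 4, in each case all higher under DRF, and in the fit of the ZT16 libraries alone it had 4. Those called without NRF replicates 1 and 2 were Foxo3, Igfbp1, Depp1 and Txnip. Slc37a4, which carries glucose 6-phosphate into the ER for G6pc, was also higher, at 459.9 ± 33.7 and 331 ± 35.1 TPM (0.47 ± 0.14, adjusted p = 0.0362), a call that held in 1 of the 8 leave-one-out fits, the fit without NRF replicate 1. Both belong to the list of gluconeogenesis, ammonia and sugar transport, in which 2 of 14 genes were called, beside 4.83% of all genes. Neither was called without NRF replicates 1 and 2 (adjusted p = 0.0805 for G6pc and 0.113 for Slc37a4).

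Among PPARA targets, few genes rose but those few rose far. Angptl4, a secreted inhibitor of lipoprotein lipase (chromosome 17, 33773750 to 33781830), was at 91.9, 74, 123 and 65.2 TPM under DRF and at 14.1, 24, 15.2 and 6.38 TPM under NRF. Its means were 5.92-fold apart (2.57 ± 0.42, adjusted p = 0.000171). Pdk4, the kinase that shuts off pyruvate dehydrogenase (chromosome 6, 5483351 to 5496309), was at 78.3, 85.8, 159.9 and 58.1 TPM under DRF and at 19.3, 34.2, 29.9 and 21.2 TPM under NRF (1.76 ± 0.33, adjusted p = 0.000767). DRF replicate 3 was the highest library for both genes, and the lowest DRF library was still above all NRF libraries. Cyp4a14, a fatty acid omega-hydroxylase, was at 1552, 1731, 2467 and 1655 TPM against 1020, 737, 893 and 941 TPM (1.03 ± 0.18, adjusted p = 0.00034). Angptl4, Pdk4 and Cyp4a14 were called in every leave-one-out fit, in the fit without NRF replicates 1 and 2 and in the fit of the ZT16 libraries alone.

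The other 22 of the 25 genes tested of this list were not called, and the list's median was 0.02. The 3 rises stood beside 2.21% of all genes called higher. Cpt1a, the entry enzyme of mitochondrial fatty acid oxidation, was at 360.3, 389.8, 485 and 312 TPM under DRF and at 315, 288, 332 and 293 TPM under NRF, with an adjusted p of 0.0577. Acsl1, which activates long-chain fatty acids, had a difference of 0.32 ± 0.12 (adjusted p = 0.115). Fat tissue also expresses Angptl4, whose highest NRF value was in replicate 2, 1 of the 2 libraries with high adipose markers. NRF replicate 1 had the highest adipose marker sum (2260 TPM) but less Angptl4 than NRF replicate 3 (adipose marker sum 38.1 TPM). The part of adipose RNA in the Angptl4 values was not tested.

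**Figure D2:**
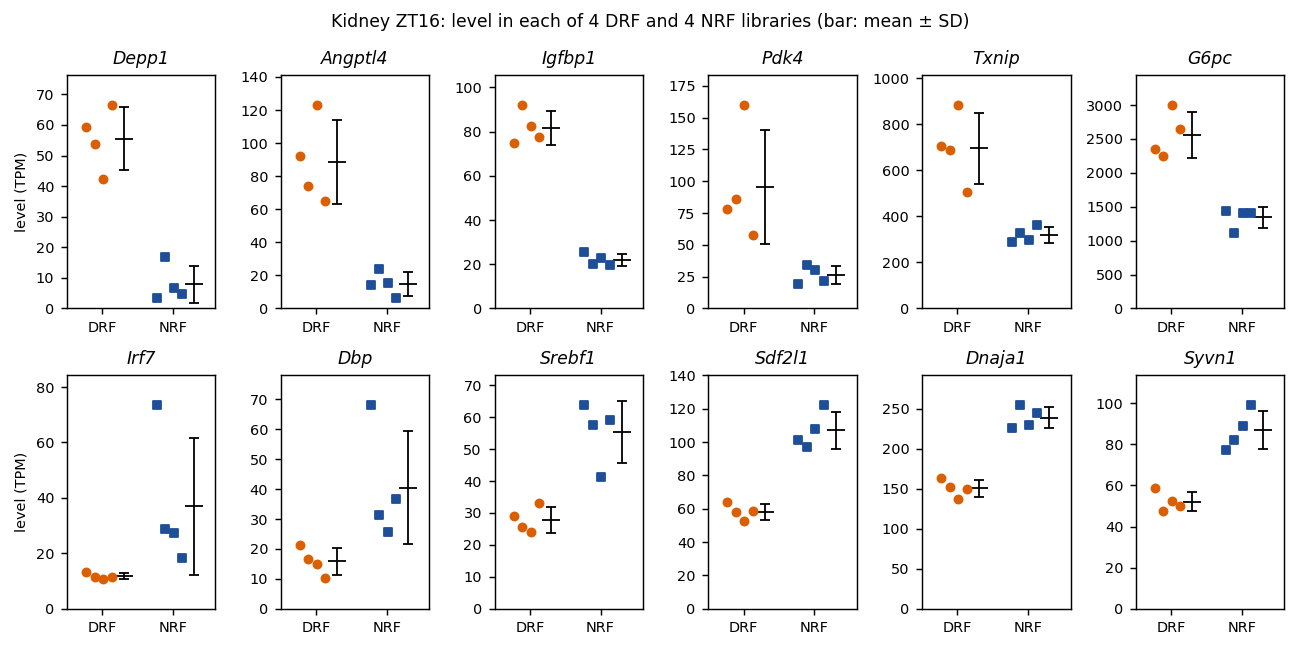
Level in TPM (vertical axis, from 0) of 12 genes in each of the 4 DRF (orange circles) and 4 NRF (blue squares) kidneys at ZT16, with bars for the mean ± SD. In each panel of the upper row the DRF libraries lie above the NRF libraries, and in each panel of the lower row they lie below. Irf7 and Dbp have 1 NRF library, replicate 1, far above the other NRF libraries, at 73.4 and 68 TPM.

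ER chaperones and genes of the unfolded protein response made the list with the most calls. Of 24 genes tested, 12 fell under DRF and none rose, beside 2.61% of all genes called lower, 22 of 24 differences were below 0, and the median was −0.35. The promoters of the 3 called members that hold the ER stress element are printed here with that of Sdf2l1, which had the largest fall of the list and holds no such element. Each sequence is the 150 bases before the annotated start, from RefSeq on GRCm38.p6, written 5′ to 3′ on the gene's strand, with the element (CCAAT, then 9 bases of any kind, then CCACG, on either strand) in capitals. Hspa5 is at chr2:34771940-34772089 (forward strand), Creld2 at chr15:88819496-88819645 (forward), Syvn1 at chr19:6046426-6046575 (forward) and Sdf2l1 at chr16:17132384-17132533 (reverse).
Hspa5: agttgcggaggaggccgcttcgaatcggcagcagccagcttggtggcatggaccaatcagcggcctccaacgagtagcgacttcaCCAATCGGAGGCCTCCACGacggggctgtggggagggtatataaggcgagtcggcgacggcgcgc
Creld2: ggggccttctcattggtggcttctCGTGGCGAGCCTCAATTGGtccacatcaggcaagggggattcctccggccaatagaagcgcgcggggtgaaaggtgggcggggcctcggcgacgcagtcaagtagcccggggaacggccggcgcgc
Syvn1: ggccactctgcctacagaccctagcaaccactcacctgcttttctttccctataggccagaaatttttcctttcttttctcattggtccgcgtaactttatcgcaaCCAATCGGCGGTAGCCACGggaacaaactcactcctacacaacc
Sdf2l1: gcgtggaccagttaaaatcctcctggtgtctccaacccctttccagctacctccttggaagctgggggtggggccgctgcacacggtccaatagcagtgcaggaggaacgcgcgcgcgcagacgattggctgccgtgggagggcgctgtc
The element lay from −65 to −47 in Hspa5, from −126 to −108 in Creld2, where it reads on the opposite strand, and from −44 to −26 in Syvn1, counted from the start. In a search of the 250 bases before the start, 9 of the 21 list members with a sequence held it, or 42.9%, against 35 of 27025 genes, or 0.13%. Of the 9 members with the element 3 were called, and of the 12 without it 7 were called. Members with the element that were not called included Canx (0.01 ± 0.08) and Calr (−0.05 ± 0.10), the lectin chaperones calnexin and calreticulin. The second form of the element (ATTGG, 1 base of any kind, then CCACG) was found in Herpud1 alone among these members. A match of letters does not show that a factor binds there.

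Syvn1, the ubiquitin ligase HRD1 that marks misfolded ER proteins for destruction (chromosome 19, 6046576 to 6053712), had the smallest adjusted p of the list. It was at 58.8, 47.7, 52.4 and 49.8 TPM under DRF and at 77.5, 82.3, 88.8 and 99 TPM under NRF (−0.72 ± 0.08, adjusted p = 3.21e-07). Sdf2l1, an ER chaperone cofactor, was at 64.1, 58, 52.5 and 58.4 TPM against 101, 96.9, 108 and 122 TPM (−0.86 ± 0.19, adjusted p = 0.00311). Creld2, a secreted ER stress protein, was at 153, 114, 118 and 114 TPM against 183, 199, 210.3 and 224 TPM (−0.71 ± 0.13, adjusted p = 0.000801). All 3 were lower in every DRF library than in any NRF library. Ddit3, the stress transcription factor CHOP, was at 40.7, 32.6, 29.3 and 29.5 TPM against 59.4, 63.2, 45.8 and 52.6 TPM (−0.73 ± 0.13, adjusted p = 0.000608). Manf, a secreted survival factor of the ER, and Hyou1, an ER member of the HSP70 family, differed by −0.68 ± 0.16 and −0.61 ± 0.14.

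The most abundant member, Hspa5, which encodes the master chaperone BiP, was at 937, 765, 764 and 756 TPM under DRF and at 933, 1168, 1206 and 1277 TPM under NRF. DRF replicate 1 reached the level of NRF replicate 1, so the regimens overlapped (−0.50 ± 0.15, adjusted p = 0.0332). Hspa5 kept its call in 2 of the 8 leave-one-out fits, those without DRF replicate 1 and without NRF replicate 1. Xbp1, the transcription factor that the sensor IRE1 activates by splicing, was called in 1 of the 8, at 225 ± 13.8 and 298 ± 40.9 TPM (SD, n = 4). Edem1 (−0.37 ± 0.09), a lectin of the ER disposal route, was called in all 8 fits. Pdia4 (−0.52 ± 0.14), a disulfide isomerase, was called in 6, Sel1l (−0.33 ± 0.09), the partner of Syvn1, in 3, and Dnajb9 (−0.51 ± 0.14), a co-chaperone of BiP, in 2. The list kept 7 to 13 calls over the 8 fits, with 7 both without DRF replicate 4 and without NRF replicate 4 and 13 without NRF replicate 1. Without NRF replicates 1 and 2 it had 9, and in the fit of the ZT16 libraries alone 6.

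Of 16 heat shock genes tested, which include mitochondrial members, 8 fell and none rose, beside 2.61% of all genes called lower. All 16 differences were below 0, and the median was −0.37. Dnaja1, an HSP40 co-chaperone (chromosome 4, 40722150 to 40737149), was at 163, 152, 137 and 149.7 TPM under DRF and at 226, 254, 229.8 and 245 TPM under NRF, with a clear gap between the groups (−0.66 ± 0.10, adjusted p = 4.53e-05). Dnajb1, another HSP40 protein, was at 57.4, 52.8, 58.9 and 56.3 TPM against 86.4, 95.3, 71.3 and 78.4 TPM (−0.54 ± 0.13, adjusted p = 0.00776). Cacybp, a protein that binds Siah1 and S100 proteins, was at 114, 108, 94 and 104 TPM against 123, 172, 142 and 139 TPM (−0.44 ± 0.10, adjusted p = 0.00419). These 3 were called in every leave-one-out fit, but Dnajb1 was not called without NRF replicates 1 and 2 (adjusted p = 0.194).

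Both HSP90 genes of the cytosol were called. Hsp90ab1, the constitutive HSP90, was at 2108, 1888, 1919 and 1580 TPM under DRF and at 2113, 2364, 2333 and 2380 TPM under NRF, where the highest DRF library and the lowest NRF library were nearly equal (−0.30 ± 0.08, adjusted p = 0.0129). It was not called without DRF replicate 4 (adjusted p = 0.0995). Hsp90aa1, the inducible HSP90, overlapped between regimens at 686 ± 97 and 918 ± 117 TPM (SD, n = 4) and was called in 2 of 8 leave-one-out fits. Chordc1, Bag3 and Fkbp4, all co-chaperones, fell by 0.42, 0.47 and 0.22 and were called in 4, 5 and 3 of the 8 fits. The list had 4 calls without DRF replicate 2 and without DRF replicate 4, 5 without DRF replicate 3 and without NRF replicate 2, 3 without NRF replicates 1 and 2, and 2 in the fit of the ZT16 libraries alone. A heat shock element (GAA and TTC in turn, in 3 units spaced by 2 bases, on either strand) was found in the 250 bases before the start of 2 of the 13 members with a sequence, Hspd1 and Hspe1, the mitochondrial chaperonins, neither of which was called. This was 15.4% of the members, and 0.514% of all genes held one.

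Of 31 genes of ribosome production tested, 7 fell, 1 rose and 23 were not called, with a median of −0.19, beside 2.61% of all genes called lower. Rrp12, a factor of ribosomal RNA processing (chromosome 19, 41862851 to 41896173), was at 8.45, 6.26, 7.22 and 8.01 TPM under DRF and at 12, 14, 13 and 12.9 TPM under NRF (−0.73 ± 0.11, adjusted p = 5.24e-05). Nop56, a core protein of box C/D small nucleolar RNPs, was at 21.2, 21.2, 23.1 and 22.8 TPM against 29.2, 33.3, 29.2 and 27.9 TPM (−0.42 ± 0.08, adjusted p = 0.0017). Wdr43 was at 26.5 ± 0.737 and 32.8 ± 2.57 TPM (SD, n = 4). Rrp12, Nop56 and Wdr43 were called in all 8 leave-one-out fits, and Nop58, Gnl3, Nle1 and Mybbp1a, with differences between −0.39 and −0.23, in 6, 4, 3 and 2 of them. The member that rose was Myc, the transcription factor listed as a driver of ribosome production, at 17.2, 14.7, 17.4 and 14 TPM against 8.98, 11.7, 9.28 and 11.3 TPM (0.57 ± 0.14, adjusted p = 0.0112), also called in all 8 fits. The list had 4 calls without NRF replicate 2, 5 without DRF replicate 3 and without NRF replicate 4, 2 without NRF replicates 1 and 2, and 3 in the fit of the ZT16 libraries alone. Those called without NRF replicates 1 and 2 were Rrp12 and Wdr43, whereas Nop56 (adjusted p = 0.0534) and Myc (0.0745) were not.

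In the list of ATF4 and the amino acid response, 3 of 18 genes were called, beside 4.83% of all genes. Atf4, the transcription factor of this response, fell with its partner Ddit3, at 138 ± 7.53 and 185 ± 32.7 TPM (−0.40 ± 0.10, adjusted p = 0.011), but was not called without NRF replicate 2 (adjusted p = 0.0905). Sesn2, a leucine sensor that restrains the growth kinase mTORC1, rose. It was at 52.4, 56.9, 63 and 48.3 TPM under DRF and at 33.2, 32.8, 37.3 and 30.7 TPM under NRF (0.70 ± 0.13, adjusted p = 0.000654), with no overlap and a call in every leave-one-out fit. Of 19 cytosolic aminoacyl-tRNA synthetases, the enzymes that charge tRNAs, limma called 0, 3 had an unadjusted p under 0.05, and the log2 CPM fit called 1. Among all 12203 genes, 2350 had an unadjusted p under 0.05 and the log2 CPM fit called 1039. Rbm3, a cold-inducible RNA-binding protein, fell by 0.42 ± 0.11 to 57.0 ± 2.06 TPM from 76.5 ± 4.34 TPM (SD, n = 4, adjusted p = 0.0129), whereas Cirbp, the other, was at 23.4, 21.7, 20.4 and 18.1 TPM against 15.3, 17.5, 15.7 and 16.7 TPM and was not called (0.34 ± 0.14, adjusted p = 0.152). All DRF libraries were above all NRF libraries for Cirbp and below them for Rbm3. Of 31 proteasome genes 1 was called, Psmb7 (0.17 ± 0.04, adjusted p = 0.0129). Without NRF replicates 1 and 2, Atf4, Rbm3 and Psmb7 were not called (adjusted p = 0.14, 0.0959 and 0.0658).

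**Figure D3:**
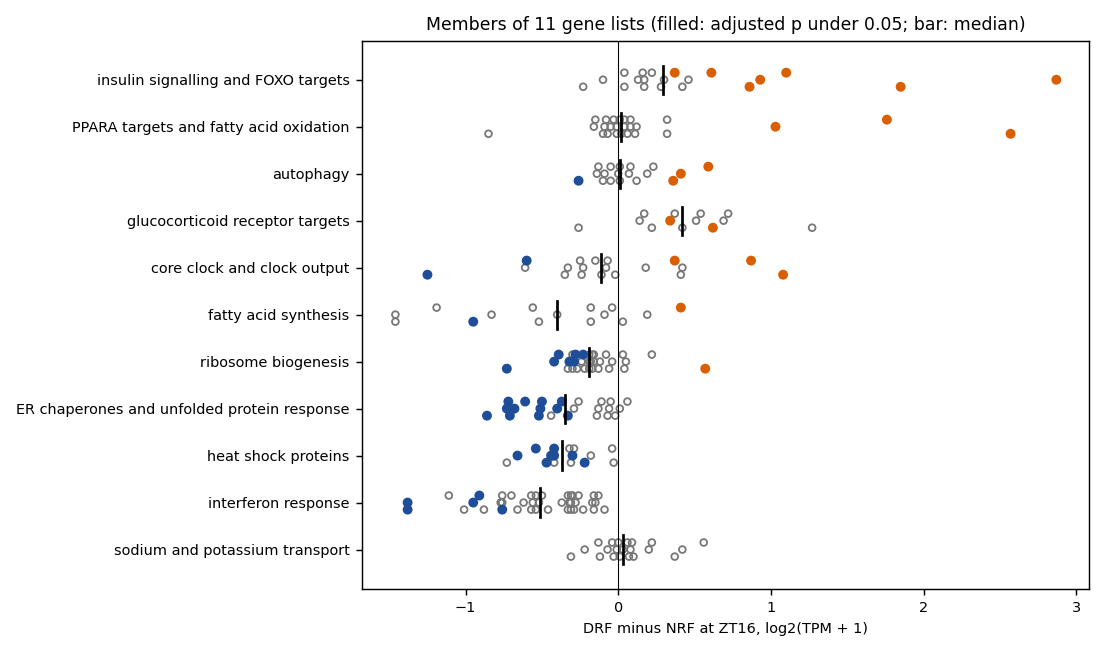
Difference between DRF and NRF at ZT16 on the log2(TPM + 1) scale (horizontal axis) for the tested members of 11 gene lists, 1 point per gene, with filled points for an adjusted p under 0.05 and a bar at the list's median. Called members lie above 0 for insulin signalling and FOXO targets and for PPARA targets, and below 0 for ER chaperones, heat shock proteins and the interferon response.

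Srebf1, the transcription factor of fat synthesis that insulin induces (chromosome 11, 60199089 to 60222581), was at 29.1, 25.6, 23.9 and 33 TPM under DRF and at 63.7, 57.4, 41.3 and 59.1 TPM under NRF. The groups did not overlap and the means were 1.98-fold apart (−0.95 ± 0.16, adjusted p = 0.000186). It stayed called when any 1 library was left out and without NRF replicates 1 and 2 (−0.81, adjusted p = 0.0182). Of 15 genes of fatty acid synthesis 2 were called, beside 4.83% of all genes. These were Srebf1 and, in the other direction, the desaturase Fads1, at 165 ± 15.3 and 124 ± 7.94 TPM (SD, n = 4, 0.41 ± 0.10, adjusted p = 0.00782). Fads1 was not called without NRF replicates 1 and 2 (adjusted p = 0.0675). Fasn, the fatty acid synthase, was at 41.7, 32.8, 40.8 and 45.4 TPM under DRF and at 209, 206, 36.5 and 45 TPM under NRF (−1.19 ± 0.66, adjusted p = 0.332). Its high values were in NRF replicates 1 and 2, the libraries with the high adipose markers, and the other NRF libraries lay in the DRF range. Pnpla3, a lipid droplet lipase, followed the same libraries, at 47.3 and 56.2 TPM there and at 3.90 to 5.88 TPM in the other 6. Angptl8, an insulin-induced partner of ANGPTL4-family proteins, was at 10.3, 11.6, 10.5 and 12.4 TPM under DRF and at 59.5, 23.5, 16.5 and 24.4 TPM under NRF (−1.23 ± 0.25, adjusted p = 0.00174). It had no overlap, its highest value was in NRF replicate 1, and it was not called without NRF replicates 1 and 2 (−0.79, adjusted p = 0.108). The part of adipose RNA in these values was not tested.

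Nsdhl, a demethylating enzyme of cholesterol synthesis, rose. It was at 139, 142, 114 and 133 TPM under DRF and at 92.7, 79.8, 76.1 and 91.1 TPM under NRF (0.63 ± 0.13, adjusted p = 0.00234). The groups did not overlap, and Nsdhl held in every leave-one-out fit. It was the only called rise among the 22 genes tested of the list of cholesterol synthesis and uptake, whose median was −0.01. Of all genes, 2.21% were called higher.

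Autophagy genes rose in part. Gabarapl1, a protein of the autophagosome membrane (chromosome 6, 129533160 to 129542346), was at 1326, 1574, 1808 and 1336 TPM under DRF and at 1061, 981, 1003 and 938 TPM under NRF (0.59 ± 0.10, adjusted p = 0.00026). Atg14, a subunit of the lipid kinase complex that starts autophagosomes, rose by 0.36 ± 0.09 (adjusted p = 0.00806), and both held in every leave-one-out fit. Wipi1 (0.41 ± 0.11), which binds the product of that kinase, held in 5 of 8, and Tfeb (−0.26 ± 0.07), the transcription factor of lysosome genes, fell and also held in 5. The other 14 of the 18 genes tested were not called, and the list's median was 0.01. The 3 rises and 1 fall stood beside 2.21% of all genes called higher and 2.61% called lower. The list had 2 calls without NRF replicate 4, 2 without NRF replicates 1 and 2 (Gabarapl1 and Atg14) and 1 in the fit of the ZT16 libraries alone.

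Of 13 glucocorticoid receptor targets, 2 rose and 12 had a difference above 0, with a median of 0.42. Among all 12203 genes, 2.21% were called higher and 5315 had a difference above 0. Errfi1, a feedback inhibitor of the EGF receptor, was at 625, 579.7, 625 and 599.5 TPM under DRF and at 413, 345, 403 and 419.6 TPM under NRF (0.62 ± 0.15, adjusted p = 0.011), called in all 8 leave-one-out fits. Klf9 (0.34 ± 0.10, adjusted p = 0.0309), a transcription factor that glucocorticoids induce, was called in 3 of the 8, those without DRF replicate 4, NRF replicate 2 or NRF replicate 3. The list had 4 calls without NRF replicate 2, but 1 without DRF replicate 1, 2 or 3, without NRF replicate 1 or 4 and with the ZT16 libraries alone. It had 0 limma calls without NRF replicates 1 and 2 (Errfi1 adjusted p = 0.124). Zbtb16, Dusp1 and Cdkn1a had larger differences, 1.27 ± 0.46, 0.72 ± 0.27 and 0.69 ± 0.27, but overlapped between regimens and were not called. Zbtb16 was at 51.3, 11.7, 24.3 and 13.9 TPM under DRF and at 4.31, 18.9, 10.6 and 5.14 TPM under NRF.

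Of 19 clock and clock output genes, 3 rose and 2 fell at ZT16, beside 2.21% of all genes called higher and 2.61% called lower. Arntl was at 10.4, 12.9, 12.7 and 13.4 TPM under DRF and at 4, 7.86, 7.84 and 6.15 TPM under NRF (0.87 ± 0.18, adjusted p = 0.00206). Npas2, which pairs with the Arntl product, was at 3.27, 4.98, 4.61 and 3.56 TPM against 0.796, 1.69, 1.6 and 1.61 TPM (1.08 ± 0.19, adjusted p = 0.000332). The regimens did not overlap for either activator, and both were called in all 8 leave-one-out fits and without NRF replicates 1 and 2. Dbp, an output gene that the activators drive, was at 21.3, 16.7, 15.1 and 10.2 TPM under DRF and at 68, 31.5, 25.6 and 36.7 TPM under NRF (−1.25 ± 0.32, adjusted p = 0.0144). Its highest value was in NRF replicate 1, without which it was not called (−0.97, adjusted p = 0.0784), nor was it without DRF replicate 4.

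Per2, a repressor, was lower in every DRF library, at 57.1, 44.1, 51.8 and 44.4 TPM against 72.7, 79.3, 72.3 and 75.3 TPM (−0.60 ± 0.18, adjusted p = 0.0413), a call that held in 1 of 8 leave-one-out fits. Per3 was lower by the same amount without passing the test (−0.61 ± 0.21, adjusted p = 0.0763). Rora, an activator of Arntl, was higher (0.37 ± 0.10, adjusted p = 0.0303) and was called in 4 of 8 fits. None of the other clock genes passed the adjusted threshold, although Nr1d2 and Nfil3, like Per3, had an unadjusted p under 0.05 (0.0249, 0.0341 and 0.00526). Clock itself differed by −0.02 ± 0.12, Cry1 by −0.07 ± 0.20, Cry2 by −0.08 ± 0.13, Per1 by 0.42 ± 0.29, Nr1d1 by −0.25 ± 0.26, Nr1d2 by −0.35 ± 0.15 and Ciart by −0.33 ± 0.20. Differences of Tef (−0.11), Hlf (−0.15), Nfil3 (0.41), Bhlhe40 (−0.23) and Bhlhe41 (−0.24) had adjusted p-values of 0.215 to 0.672. The list had 2 calls without NRF replicate 1, Arntl and Npas2, and 3 without DRF replicate 2, DRF replicate 4 or NRF replicate 4. The TPM levels of Dbp and Nr1d1 rest on an annotated gene length at which their reads did not come out whole.

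Interferon-response genes lay lower under DRF, and their highest levels were in 1 NRF library. All 40 genes tested had a difference below 0, with a median of −0.51, and 5 were called, beside 2.61% of all genes called lower. Irf7, the transcription factor that amplifies interferon production (chromosome 7, 141262706 to 141266481), was at 13.3, 11.6, 10.8 and 11.3 TPM under DRF and at 73.4, 28.9, 27.3 and 18.3 TPM under NRF (−1.38 ± 0.28, adjusted p = 0.00178). The DRF libraries lay close together, all NRF libraries were above them, and NRF replicate 1 was the highest. Irf7 was still called without that library (adjusted p = 0.0208), but not without NRF replicates 1 and 2 (−0.88, adjusted p = 0.129). The other called genes were Ifi27l2a, Oasl1, Lgals3bp and Cxcl10, and none of them was called without NRF replicate 1 (adjusted p of 0.11 to 0.239). Ifi27l2a was at 22.2, 24, 34.6 and 32.9 TPM under DRF and at 258, 117, 48.9 and 20.4 TPM under NRF, with overlap (−1.38 ± 0.42, adjusted p = 0.0434). The summed level of the 47 list genes in the table was 954 to 1217 TPM under DRF, 2522 TPM in NRF replicate 1 and 1160 to 1653 TPM in the other NRF libraries. All 40 differences were still below 0 without NRF replicate 1, with a median of −0.30 and 1 call, and 35 of 40 were below 0 without NRF replicates 1 and 2, with a median of −0.19 and no limma call. The list had 2 calls without DRF replicate 3, 3 without DRF replicate 2, 8 without NRF replicate 3 and 9 without NRF replicate 4, and 0 in the fit of the ZT16 libraries alone. At other times, in other mice, 36 of the 40 were called lower at ZT8, 28 at ZT0 and 27 at ZT4. Counts were small at ZT12 (6 lower, 1 higher), ZT20 (3 lower) and ZT24 (4 lower). Of all genes, 15.1%, 16.9%, 27.5%, 18.7%, 16.9% and 14.7% were called at these 6 times in turn, in either direction. The summed immune cell markers, mostly Cd74, and the summed adipose markers were highest in the same NRF replicate 1. Their part in the difference was not tested.

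Other genes with the largest rises belonged to no list or to 1 called member of a list. Ndrg1, a stress-responsive gene that hypoxia induces (chromosome 15, 66929318 to 66969640), was at 2171, 2691, 3320 and 2598 TPM under DRF and at 1278, 1131, 1422 and 1274 TPM under NRF (1.07 ± 0.18, adjusted p = 0.00021). It was the only called gene of 14 tested in the hypoxia list, beside 4.83% of all genes called. Pgk1 (0.19) and Ldha (0.14) of this list were not called. Klf11, a Krüppel-like transcription factor, was at 16.9, 16.1, 19.8 and 9.62 TPM against 4.36, 6.58, 5.22 and 5.56 TPM (1.34 ± 0.24, adjusted p = 0.000608). Tmem86a, a lysoplasmalogenase, was at 75.3 ± 12.5 and 33.2 ± 11.8 TPM (SD, n = 4), and the linker histone gene Hist1h1c at 64.7 ± 28.8 and 28.6 ± 4.28 TPM. All 4 held in every leave-one-out fit, and their lack of overlap was a condition of the naming rule. Hist1h1c was not called without NRF replicates 1 and 2 (adjusted p = 0.0603) or in the fit of the ZT16 libraries alone (adjusted p = 0.0999).

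Apoc3 and Apoa4, neighbouring apolipoprotein genes on chromosome 9 (46232933 to 46235636 and 46240696 to 46243459), were both higher under DRF. Apoc3 was at 75.8, 82.7, 90.7 and 107 TPM against 33.2, 36.7, 28.2 and 32.2 TPM (1.42 ± 0.39, adjusted p = 0.0235), and Apoa4 at 43.4, 38.6, 35.2 and 47.5 TPM against 14.1, 16.6, 16.2 and 15 TPM (1.35 ± 0.35, adjusted p = 0.0148). Neither overlapped between regimens. Apoa4 was called in all 8 leave-one-out fits and Apoc3 in 3, those without DRF replicate 1, NRF replicate 1 or NRF replicate 2. With NRF replicates 1 and 2 both left out neither was called (adjusted p = 0.107 for Apoa4 and 0.0992 for Apoc3). In the fit of the ZT16 libraries alone both were called (adjusted p = 0.000967 for Apoa4 and 0.00129 for Apoc3). Apoc3 is itself 1 of the 8 liver markers tested. All 8 had a difference above 0, and only Apoc3 was called. Among all 12203 genes, 5315 had a difference above 0 and 2.21% were called higher. Alb, the defining liver transcript, was at 63.2, 71.1, 101 and 187 TPM under DRF and at 27.1, 87.2, 61.9 and 47.9 TPM under NRF, and overlapped (0.89, adjusted p = 0.463). The part of liver RNA in the apolipoprotein values was not tested.

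Among the largest falls outside the lists above, Cygb, the cytoglobin gene, was at 10.8, 13.4, 10 and 13 TPM under DRF and at 23.7, 22.7, 14.2 and 22.3 TPM under NRF (−0.74 ± 0.18, adjusted p = 0.00847). It was called without any 1 library, but not without NRF replicates 1 and 2 (−0.56, adjusted p = 0.194) or with the ZT16 libraries alone (adjusted p = 0.0639). Nkain1, which encodes a partner of the sodium pump, was at 105 ± 9.79 and 179 ± 40.5 TPM (SD, n = 4, −0.74 ± 0.20) and lost its call without DRF replicate 3, NRF replicate 1 or NRF replicate 4. Ier3, an immediate early gene, was at 91.3, 88.7, 102 and 84.7 TPM against 201, 167, 128 and 192 TPM (−0.88 ± 0.24, adjusted p = 0.0237), and was called in 4 of 8 fits, not in those without DRF replicates 2 or 4 or NRF replicates 1 or 4. With it, 4 of 16 immediate early genes fell, beside 2.61% of all genes called lower. Klf4, Jund and Atf3 were called in 2, 2 and 1 of the 8 fits. The list had 0 limma calls without DRF replicate 2, DRF replicate 4 or NRF replicate 4, 1 without DRF replicate 3 or NRF replicate 1, and 2 without DRF replicate 1 or NRF replicate 2. Without NRF replicates 1 and 2 it had 0 limma calls (Ier3 adjusted p = 0.198). Osgin1, a target of the oxidative stress factor NRF2, was at 103, 101, 129 and 120.5 TPM against 218, 171, 148 and 204 TPM (−0.69 ± 0.14, adjusted p = 0.00206) and was the 1 called gene of 14 in its list, in every leave-one-out fit.

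None of 4 lists of renal transport had a call by limma. Among all 12203 genes limma called 4.83%, 2350 had an unadjusted p under 0.05 and the log2 CPM fit called 1039. For sodium and potassium transport limma called 0 of 21 genes, 3 had an unadjusted p under 0.05 and the log2 CPM fit called 0. For water, urea and osmolyte handling the counts were 0 of 11, 1 and 0. For organic anion, cation and drug transport they were 0 of 12, 1 and 0. For phosphate, calcium, magnesium and vitamin D they were 0 of 18, 6 and 3. Scnn1g, the gamma subunit of the epithelial sodium channel, was at 62.6, 65.1, 67.5 and 71.1 TPM under DRF and at 86.2, 77.6, 76.4 and 90.4 TPM under NRF, apart without overlap but not called (−0.31 ± 0.11, adjusted p = 0.114). The calcium-binding protein gene Calb1 differed by 0.43 ± 0.17 and was not called. Slc14a2, near 0 in NRF replicate 1, had a difference of 2.37 ± 1.65 and was not called. A transporter outside these lists that was called is Slc5a12, the lactate carrier of the proximal tubule used here as a cortex marker, at 504, 608, 579 and 550.1 TPM against 298, 255, 307 and 277 TPM (0.98, adjusted p = 0.0074). The sum of the 8 cortex markers overlapped, with 5666 to 6825 TPM under DRF and 4345 to 6314 TPM under NRF. Of 16 cell cycle genes limma called 0, 7 had an unadjusted p under 0.05 and the log2 CPM fit called 2.

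To test whether the regimens differed in another way at ZT16 than at neighbouring times, the difference at ZT16 was set against that at ZT12, at ZT20 and against the mean of the other clock times. The contrast with ZT12 called 1507 genes (12.3%), of which 6.31% of all genes were more positive at ZT16 and 6.04% more negative. That with ZT20 called 818 genes (6.7%), with 2.07% more positive and 4.64% more negative. That with the mean of the others called 787 genes (6.45%), with 3.43% and 3.02%. Against ZT20, 30.8% of the calls were more positive at ZT16, but 49% after median-of-ratios scaling and 48.3% with the deposited values, so that the balance of directions depended on the scaling. Against the mean of the other times the share was 53.1%, and 40.3% with log2 CPM.

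Depp1 had the largest contrast with ZT12. The difference between regimens was −1.57 at ZT12 and 2.87 at ZT16, a change of 4.44 with an adjusted p of 8.87e-06. Its level was 8.45 ± 1.38 TPM at ZT12 and 55.5 ± 10.2 TPM at ZT16 under DRF, and 29.1 ± 11.7 and 7.87 ± 6.08 TPM under NRF (SD, n = 4). Igfbp1, Angptl4 and Pdk4 turned in the same way, from −1.59, −1.22 and −1.51 at ZT12 to 1.85, 2.57 and 1.76 at ZT16. Igfbp1 under DRF was at 77.6 ± 8.75 TPM at ZT8 and at 81.7 ± 7.62 TPM at ZT16 (SD, n = 4). Ccl5, a chemokine, went from −2.03 to 0.87. In the other direction, Sdf2l1 went from 1.49 to −0.86, Srebf1 from 1.02 to −0.95, Angptl8 from 0.70 to −1.23, Scd2, a desaturase, from 1.18 to −0.40 and Dleu7 from 1.31 to −0.18. Igfbp1 had the smallest adjusted p of these genes, 7.37e-11, and Dleu7 the largest, 0.000147. By list, the contrast with ZT12 called 17 of 24 ER chaperone genes and 12 of 16 heat shock genes, all more negative at ZT16, and 10 of 20 insulin and FOXO genes, all more positive. Among all genes, 6.04% were more negative and 6.31% more positive.

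Fewer of these genes passed against ZT20. Depp1 (adjusted p = 0.192), Angptl4 (0.608), Srebf1 (0.503) and Sdf2l1 (0.126) did not pass this contrast, although Depp1 and Sdf2l1 had an unadjusted p under 0.05 (0.0357 and 0.0168). Igfbp1 did, with 1.85 at ZT16 and 0.60 at ZT20 (adjusted p = 0.00918), and Pdk4 did in the other direction, with 1.76 and 3.49 (adjusted p = 0.0196). Pdk4 under DRF was at 95.5 ± 44.5 TPM at ZT16 and at 348 ± 116 TPM at ZT20 (SD, n = 4). G6pc was 0.93 at ZT16 and −0.98 at ZT20 (adjusted p = 7.05e-05). Ppard, a nuclear receptor of the PPAR family, was −0.03 and −1.45, Acmsd, an enzyme of tryptophan breakdown, 0.54 and −1.04, and Dleu7 −0.18 and −1.42. Negative contrasts belonged to Dbp (−1.25 at ZT16, 0.77 at ZT20), Nr1d1 (−0.25 and 1.51) and Socs2, a feedback inhibitor of growth hormone signalling (−1.07 and 0.78), with adjusted p-values of 0.00186 to 0.035. Of 25 PPARA targets, 11 were called more negative at ZT16 than at ZT20 and none more positive. Among all genes 4.64% were more negative and 2.07% more positive, a balance that depended on the scaling.

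**Figure D4:**
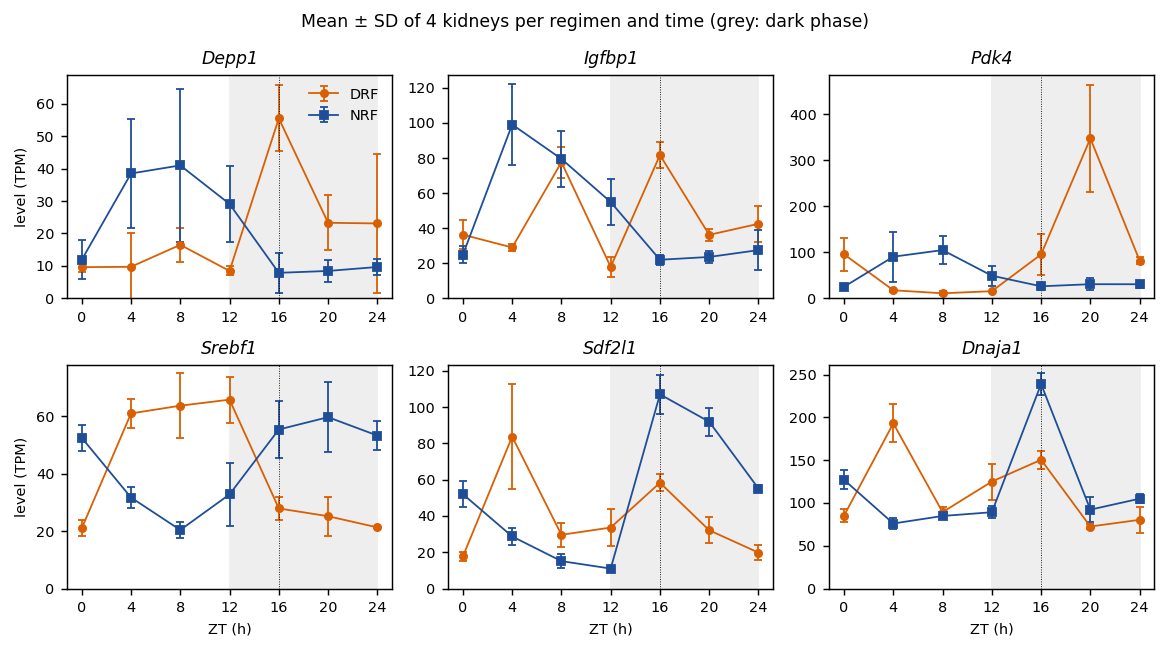
Level in TPM (vertical axis, from 0) of 6 genes over ZT (horizontal axis, h) in DRF (orange) and NRF (blue) kidneys, mean ± SD of 4 mice, with the dark phase in grey and a dotted line at ZT16. Depp1 under DRF has its highest mean at ZT16, Igfbp1 under DRF is at 81.7 TPM at ZT16 and nearly as high at ZT8 (77.6 TPM), whereas Pdk4 under DRF is highest at ZT20, and Dnaja1 under NRF peaks at ZT16 at 239 TPM.

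Against the mean of the other clock times, the largest positive contrasts were those of Depp1 (3.50, adjusted p = 2.13e-05), Angptl4 (2.73), Igfbp1 (2.28), Pdk4 (2.10) and Klf11 (1.67), and the largest negative ones those of Dbp (−1.76, adjusted p = 0.00079), Angptl8 (−1.36), Ier3 (−1.23), Srebf1 (−1.16) and Sdf2l1 (−1.04). Cyp4a14, Irf7 and Apoc3 had differences at ZT16 that were not distinguished from that average (contrasts 0.10, −0.29 and 0.71, adjusted p = 0.849, 0.691 and 0.392). For Irf7 the regimens differed most at ZT8 (−2.19), with −1.65 at ZT4, −1.41 at ZT0, −1.04 at ZT12 and 0.09 at ZT20. Irf7 was called at ZT0 but not at ZT24, the same clock time in other mice.

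The genes called at ZT16 were followed to the other times, whose kidneys came from other mice. Of the 589 genes, 359 were also called at ZT4, which is 61% of the ZT16 calls and 10.7% of the ZT4 calls, and 307 of these 359 had the opposite direction. At ZT12, 256 were called, 43.5% of the ZT16 calls and 11.2% of the ZT12 calls, of which 164 were opposite. At ZT20, 202 were called, 34.3% of the ZT16 calls and 9.79% of the ZT20 calls, of which 170 had the same direction. Beside this, 27.5%, 18.7% and 16.9% of all genes tested were called at ZT4, ZT12 and ZT20. Dnaja1 is an example of the reversal at ZT4, with 1.33 at ZT4 and −0.66 at ZT16. At ZT4 its NRF level was 76 ± 6.02 TPM and its DRF level 193 ± 22.1 TPM, and at ZT16 they were 239 ± 13.2 and 150.5 ± 10.4 TPM (SD, n = 4). Of the ER chaperone list, 22 of 24 genes were higher under DRF at ZT4 and none lower, and 15 were lower and 1 higher at ZT20. Of the heat shock list, 14 of 16 were higher at ZT4 and 9 lower at ZT20, with none in the other direction. Among all genes, 10.3% were higher and 17.2% lower at ZT4, 7.29% and 11.4% at ZT12, and 10.8% and 6.15% at ZT20. PPARA targets had 12 of 25 lower at ZT12 and 19 higher at ZT20, against 3 higher at ZT16. Of the 589 genes, 96 were called at ZT16 and at no other time, which does not show that they did not differ elsewhere.

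**Figure D5:**
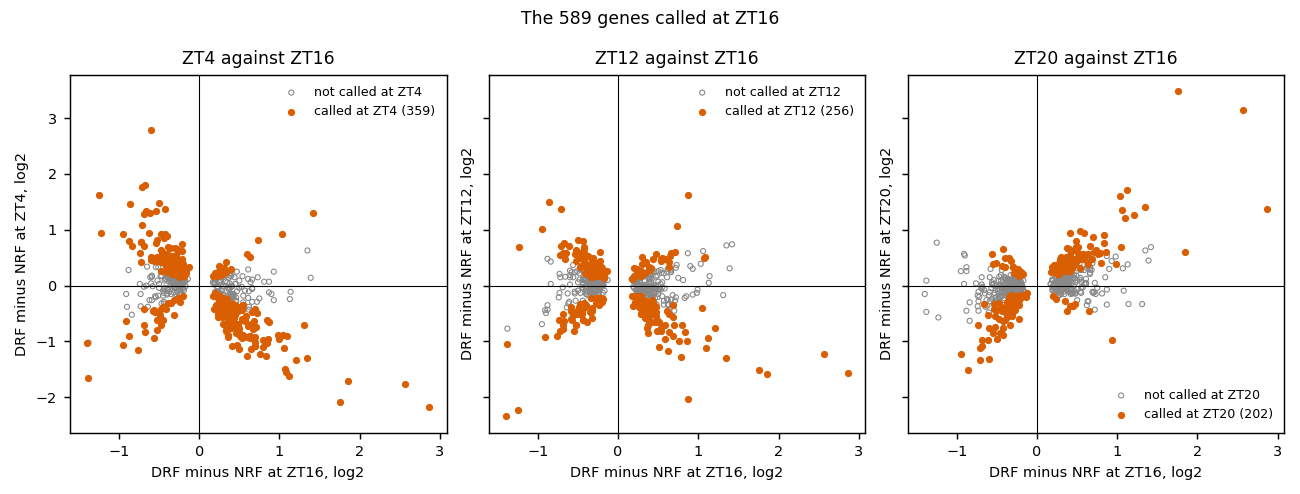
Difference between DRF and NRF at ZT4, ZT12 and ZT20 (vertical axes, log2(TPM + 1)) against that at ZT16 (horizontal axes) for the 589 genes called at ZT16, with filled points for genes also called at the other time. At ZT4 most of the 359 filled points lie in the quadrants of opposite sign, and at ZT20 most of the 202 lie in the quadrants of the same sign.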

How the data were processed

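Poly(A) RNA of kidneys was sequenced as paired-end reads of 100 bases on a BGISEQ-500. The submitters' processing notes name HISAT2, Bowtie2 and RSEM with the builds mm10 and GRCm38.p6, in no given role. The deposited values, named TPM by the authors, are treated as a score, because they behaved as log2(CPM + 1) divided by gene length and scaled to a nearly constant sum (999145 to 999753 per library). Reads were recovered as whole numbers for 14319 of 17027 genes with union exon lengths of GENCODE M21 and for 996 more only at a length searched for so that they came out whole, 89.9% in all (99.0% of their values, tolerance 0.05 read, up to 0.1 at high reads), and scaled to linear TPM. Among genes named with values, Angptl4, Rrp12, Cpt1a, Fads1, Scd2, Klf9, Dusp1, Syvn1, Wdr43 and Slc14a2 have a searched length. Genes with fractional reads were left out except Dbp and Nr1d1. Averaged over genes, the variance between replicate libraries was at least 7.98 times that of counting noise. This average does not show how large counting noise was for genes at low levels.

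Genes with a mean of at least 1 TPM over 56 libraries (12203) were tested as log2(TPM + 1) in limma (version 3.58.1, run under R version 4.3.3), in 1 fit of 14 groups that share the spread, allowing it to follow the mean level. Benjamini-Hochberg adjusted p under 0.05 was called, 2-sided. The label numbers mark separate mice in each group, and the p-values measure the spread between mice. Members, lists and contrasts were chosen with earlier results of these data known. Lists have no test of their own. Named genes were the 12 largest called rises and falls with a mean of at least 10 TPM and no overlap, all clock genes, up to 12 called or the 6 members of smallest p of each other list, and 5 genes for each end of each contrast of times. Other genes were named after their values were seen. Some genes that the rule names are not reported here. One column of NRF ZT24 carried a number absent from the labels and was used as a library with no number. Alternatives were the scaling, the deposited values, the libraries fitted, the replicate block, the pseudocount (0.1, 5), the filter (5 TPM or none), log2 CPM, the trend, the thresholds, leaving out each ZT16 library and, added after seeing the data, genes with fractional reads and both NRF replicates 1 and 2 left out. Promoter sequences were from RefSeq (GRCm38.p6).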

Additional observations from a re-analysis of the deposited data

Results flagged for a closer look

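In 15 of 178 groups of 4 libraries checked, 1 library lay far from the other 3 of its group, 10 times under NRF and 5 times under DRF. Chance gives about 1 in 20 such groups. Under NRF the highest library was at 44 TPM for Cxcl10, 363 TPM for Lgals3bp, 14.8 TPM for Oasl1 and 19 TPM for Atg14, and the lowest at 14.2 TPM for Cygb, 0.796 TPM for Npas2, 1120 TPM for G6pc and 72.4 TPM for Sel1l. Under DRF the highest library was at 153 TPM for Creld2, 937 TPM for Hspa5 and 146 TPM for Jund, and the lowest at 113 TPM for Psmb7. Of the summed tissue markers, 1 NRF library was at 6.72 TPM for the adrenal gland and 1 at 406 TPM for liver, and 1 DRF library was at 109 TPM for the urothelium. The cause of these values was not tested.

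The difference between regimens differed between times, by limma's test of the contrast, for the genes with the largest contrasts. Against ZT12 the contrast (ZT16 minus ZT12, log2 scale) was 4.44 for Depp1, 3.79 for Angptl4, 3.44 for Igfbp1, 3.27 for Pdk4 and 2.90 for Ccl5. It was −2.35 for Sdf2l1, −1.98 for Srebf1, −1.93 for Angptl8, −1.57 for Scd2 and −1.49 for Dleu7. Against ZT20 it was 1.91 for G6pc, 1.58 for Acmsd, 1.43 for Ppard, 1.25 for Igfbp1 and 1.24 for Dleu7, and −2.01 for Dbp, −1.85 for Socs2, −1.76 for Nr1d1 and −1.72 for Pdk4. Against the mean of the other clock times it was 3.50 for Depp1, 2.73 for Angptl4, 2.28 for Igfbp1, 2.10 for Pdk4 and 1.67 for Klf11, and −1.76 for Dbp, −1.36 for Angptl8, −1.23 for Ier3, −1.16 for Srebf1 and −1.04 for Sdf2l1.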

How the results depend on the processing

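The number of genes called at ZT16, 589, was 944 after median-of-ratios scaling, 1039 with log2 CPM, 167 with the ZT16 libraries alone, 205 at an adjusted p under 0.01, 120 with a minimum of 1.5-fold and 234 without NRF replicates 1 and 2, and 335 (without NRF replicate 4) to 568 over the leave-one-out fits. Against ZT12 it was 823 at 0.01 and 537 with 1.5-fold. Against ZT20 it was 311 with the libraries of both times alone, 1237 with log2 CPM, 270 at 0.01, 238 with 1.5-fold and 351 without NRF replicates 1 and 2, and 483 (without NRF replicate 2; 524 without DRF replicate 4) to 844 over the leave-one-out fits. Against the mean of the other times it was 1249 after median-of-ratios scaling, 1264 with log2 CPM, 363 at 0.01, 164 with 1.5-fold and 381 without NRF replicates 1 and 2, and 502 (without DRF replicate 2) to 781 over the leave-one-out fits. Stricter thresholds lower these counts by construction, and the cause of the other moves was not tested. Of the 78 named genes called at ZT16, none reversed under any alternative run, 42 were called in every leave-one-out fit, 35 with the ZT16 libraries alone and 32 without NRF replicates 1 and 2.

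With the replicate block the counts were 589, 1470, 767 and 768, and the block left out 1 NRF ZT24 library with no number. Libraries that share a number did not deviate together at ZT16 (correlations −0.44, −0.32, −0.11 and 0.12), so the numbers were not taken as pairs. Groups of 4 mice limit what can be called.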
